A study of Mus musculus with 6 samples.

Results

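The growth hormone receptor and IGF axis is represented here by 10 genes chosen by symbol: Ghr, Jak2, Stat5b, Socs2, Cish, Igf1, Igfals, Igfbp1, Igfbp2 and Igfbp4. Each was found once in the tables of all 6 livers, among 16426 genes listed in at least 1 of them. The livers form 2 groups. For 3 livers the AAV8 vector given through the tail vein carried a hairpin RNA against S1PR2 (labelled shRNA-S1PR2), a receptor for sphingosine-1-phosphate, and for 3 livers it carried a scrambled hairpin (labelled shRNA-Scramble). All animals were on a mixed B6:sv129 background, aged 7 to 12 weeks and, per the series text, male and given about 0.84 mg/kg dexamethasone in the drinking water for 7 days. Both groups therefore share the vector and the glucocorticoid, and no group without them was analysed here. The labels do not say that replicates are separate animals, so each p-value below measures the spread between these samples, which may be technical.

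Growth hormone from the pituitary binds its receptor GHR on hepatocytes, where the attached kinase JAK2 phosphorylates the transcription factor STAT5B. STAT5B drives transcription of Igf1, of Igfals and of the feedback inhibitors Socs2 and Cish, and secretion of growth hormone in pulses makes the last pair vary over hours. Most circulating IGF1 comes from the liver and travels bound to IGF binding proteins, of which IGFBP1 is known to be raised by glucocorticoids and fasting and lowered by insulin, and IGFBP2 to be higher in fasting and lower when growth hormone is high.

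Short stretches of promoter are shown because they hold motifs of factors known to act on this axis, beside the promoter of the member that rose. Windows from 250 bases before to 50 bases after the annotated start were taken from RefSeq (GRCm38.p6), and 9 of the 10 members had at least 1, 14 windows in all. They were searched on both strands for TTCNNNGAA, the palindrome that STAT5 recognises, for CAAAANAA, the core of the insulin response element bound by FOXO factors, and for the GC box GGGCGG. The matches are in capitals, the sequences are 5′ to 3′ on the gene's strand, and positions count from the start site, the base before it being -1. The Cish stretch lies at chr9:107296654-107296683 (+ strand, bases -5 to 25), the Igfals stretches at chr17:24877597-24877626 (+, -247 to -218 of 1 start) and chr17:24878162-24878191 (+, -69 to -40 of another), the Igfbp1 stretch at chr11:7197673-7197702 (+, -114 to -85) and the Igfbp2 stretch at chr1:72824362-72824391 (+, -118 to -89).
Cish: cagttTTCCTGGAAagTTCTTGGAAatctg
Igfals, start A: cgatctataatTTCTCAGAAaagaggctga
Igfals, start B: tctgccaggtgTTCCTAGAAgaggccctgg
Igfbp1: cacaagCAAAACAAacTTATTTTGaacact
Igfbp2: gggggGGGCGGtgcggggggGGGCGGtgcg
TTCNNNGAA was found in 3 member windows, those of Cish (2 matches) and Igfals, against 7% of 12537 windows of the genes tested and 8.3% of all 32851 windows. CAAAANAA was found in 1 member window, that of Igfbp1 (2 matches), against 5.52% of the windows of genes tested. The GC box was in 7 member windows and in 60.8% of the windows of genes tested, and the first Igfbp2 window held 3. A match describes letters only; binding was not measured.

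The libraries held 16558775 to 17410160 expected counts, the number of fragments that the program RSEM assigns to genes. S1pr2 itself had 3.04, 2.2 and 2.22 CPM in the S1PR2 shRNA livers, against 4.41, 5.23 and 6.66 CPM in the scramble livers; CPM here are expected counts scaled to library size with TMM factors. It fell by 1.12 on the log2 scale (edgeR's quasi-likelihood F test; adjusted p by Benjamini-Hochberg = 0.0301), a call lost without S1PR2 shRNA liver 2 (edgeR's adjusted p = 0.117) or 3 (0.101), or scramble liver 2 (0.0785) or 3 (0.0962). S1pr2 was called in 10 of 18 settings; it was also lost with the replicate number as a block and with limma on log2(FPKM + 0.1), where its log2 fold change was -0.9 (adjusted p = 0.0661), and on log2(FPKM + 1), where it was -0.54 with a filter (0.0677) or without (0.093). Hepatocyte markers (7 of 8 listed; 0 called by edgeR, 3 at an unadjusted p below 0.05, 3 by DESeq2) summed to 74320.7 to 107741.1 CPM in the S1PR2 shRNA and 117074.9 to 146811 CPM in the scramble livers, without overlap. Alb made up most of each sum. The log2 fold change was negative in 6 of the 7 hepatocyte markers, with a median of -0.19. Over all genes tested, 24.5% had an unadjusted p below 0.05. Of the 3 hepatocyte markers at an unadjusted p below 0.05, Alb and Apob were lower (log2 fold changes -0.59 and -0.61) and Apoa1 was higher (1.08) in every S1PR2 shRNA liver. Lymphocyte markers summed to 0.759 to 1.65 CPM in the S1PR2 shRNA and 0.303 to 0.56 CPM in the scramble livers; 0 of 7 passed the filter and 6, Cd3e and Cd3g among them, were at 0 in at least 1 liver. In bulk liver, fewer cells of a type cannot be told apart from less RNA per cell.

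Of the 10 members, all of which passed the filter on low counts, 1 rose and 0 fell in the S1PR2 shRNA livers at an edgeR adjusted p below 0.05. Over the 12230 genes tested 3.02% rose and 4.64% fell, 7.66% together, so 1 of 10 is near the background. Upper-quartile scaling, which moved the median of all genes to 0.075, gave 506 rises and 476 falls in place of 369 and 568. The member that rose was Igfbp2. At an unadjusted p below 0.05 there were 3 members (Igfbp2, Socs2 and Stat5b), against 24.5% of all genes tested, and DESeq2 called 2 members and limma-voom 1, with 0 falls in either. The median log2 fold change of the members was -0.02, against 0.01 over all genes tested. In 3 members every liver of one group lay beyond every liver of the other, against 31.9% of all genes tested.

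**Figure D1:**
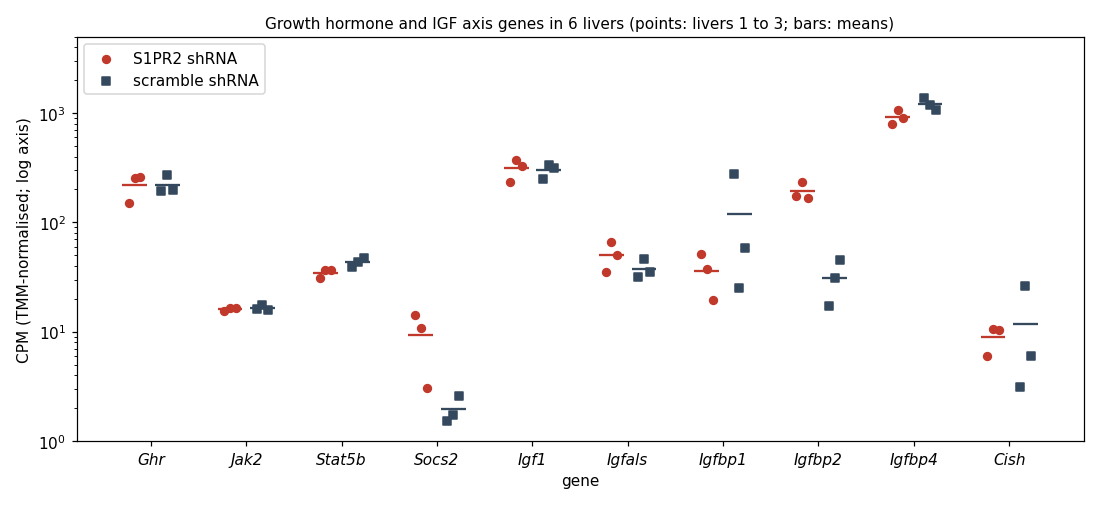
CPM (log axis) of the 10 genes in each liver, S1PR2 shRNA livers as red circles and scramble shRNA livers as dark squares, with group means as bars. Igfbp2 and Socs2 lie higher in every S1PR2 shRNA liver, Stat5b lies lower in each, and Igfbp1 and Cish each have 1 scramble liver far above the other 2.

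Neither the receptor nor its kinase passed the test, and both differed by less than the spread between livers. Ghr (Entrez gene 14600), the growth hormone receptor, had 149.8, 252.4 and 260.8 CPM in S1PR2 shRNA livers 1 to 3, against 194.3, 270.7 and 199.7 CPM in scramble livers 1 to 3. The groups overlapped, and the lowest value was that of S1PR2 shRNA liver 1. The 95% interval of its log2 fold change ran from -0.55 to 0.55 (edgeR's adjusted p = 0.994), which leaves room for a change of that size either way. Jak2 (16452), the kinase, had 15.4, 16.4 and 16.6 CPM in the S1PR2 shRNA livers and 16.2, 17.4 and 15.7 CPM in the scramble livers. It was among the steadiest genes of these livers, with a within-group SD of 0.06 log2 units that was lower in only 3.33% of genes tested. Its log2 fold change of -0.03 had an interval of -0.25 to 0.19 (edgeR's adjusted p = 0.891).

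Stat5b (20851), the transcription factor that JAK2 activates, had 30.9, 36.3 and 36.8 CPM in the S1PR2 shRNA livers, against 38.8, 43.4 and 47.3 CPM in the scramble livers. Every S1PR2 shRNA liver was below every scramble liver, as in 16.8% of all genes tested. The log2 fold change was -0.32 (SE 0.12, 95% interval -0.59 to -0.05), and Stat5b did not pass (edgeR's adjusted p = 0.142). All 6 libraries gave it a fractional count, which RSEM assigns where reads fit more than 1 gene, and the neighbouring Stat5a is a near copy, so its value is uncertain.

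Of the feedback inhibitors, Socs2 was higher in each S1PR2 shRNA liver without passing the test, and Cish overlapped between groups. Socs2 (216233), a SOCS-box protein that removes the activated receptor, had 14.2, 10.8 and 3.04 CPM in the S1PR2 shRNA livers, against 1.53, 1.74 and 2.6 CPM in the scramble livers. These levels rest on 281, 177 and 52 counts in the S1PR2 shRNA and 25, 28 and 43 counts in the scramble livers. Every S1PR2 shRNA liver lay above every scramble liver, as in 15.1% of all genes tested, but S1PR2 shRNA liver 3 was close to scramble liver 3. The mean was 9.37 ± 5.73 CPM in the S1PR2 shRNA and 1.96 ± 0.567 CPM in the scramble livers (SD, n = 3 each). The log2 fold change of 2.26 (SE 0.58, 95% interval 0.84 to 3.67) missed the threshold (edgeR's adjusted p = 0.0728). It passed without S1PR2 shRNA liver 3 (2.66, edgeR's adjusted p = 0.0115), in DESeq2 (adjusted p = 0.000248) and in edgeR without the robust option (adjusted p = 0.0481), and over 18 settings its adjusted p ran from 0.000248 to 0.226.

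Cish (12700), an SH2 protein that competes with STAT5 for the receptor, had 6.02, 10.5 and 10.4 CPM in the S1PR2 shRNA livers, against 3.12, 26 and 5.93 CPM in the scramble livers. The counts behind them were 119, 171 and 178 in the S1PR2 shRNA and 51, 418 and 98 in the scramble livers. The whole range of the S1PR2 shRNA livers lay inside that of the scramble livers; the highest was 1.74 times the lowest in the S1PR2 shRNA and 8.32 times in the scramble livers. The log2 fold change was -0.38 (SE 0.8, edgeR's adjusted p = 0.824), and without scramble liver 2 it was 0.97 (edgeR's adjusted p = 0.199). With all 6 livers it was also positive in limma-voom (0.131), with the replicate number as a block (0.075) and in limma on log2(FPKM + 0.1) (0.28). Its sign therefore depends on that liver and on the setting. In GENCODE M21 the exons of Cish overlap those of 2 genes on the opposite strand, whose reads cannot be told apart from its own without the strand handling. No other member had an exon overlap.

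Neither of the secreted products Igf1 and Igfals passed the test. Igf1 (16000), the hormone itself, had 235.1, 371.7 and 328.8 CPM in the S1PR2 shRNA livers and 247.9, 335.6 and 312.8 CPM in the scramble livers. The groups overlapped throughout, with means of 311.9 ± 69.8 CPM in the S1PR2 shRNA and 298.8 ± 45.5 CPM in the scramble livers (SD, n = 3 each). Its counts were fractional in 3 libraries. The log2 fold change was 0.06 with a 95% interval of -0.4 to 0.52 (edgeR's adjusted p = 0.888). Igfals (16005), the acid labile subunit that holds IGF1 in its long-lived serum complex, had 35, 66.6 and 49.9 CPM in the S1PR2 shRNA livers, against 31.8, 45.9 and 35.4 CPM in the scramble livers. Its groups overlapped as well, and its log2 fold change of 0.42 (SE 0.25) did not pass (edgeR's adjusted p = 0.351).

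Igfals was also set against Igf1 in the same liver. In FPKM, the deposited unit that divides by transcript length so that genes can be compared, Igfals amounted to 18.6, 22.1 and 17.3% of Igf1 in the S1PR2 shRNA livers, against 14.2, 16.7 and 13% in the scramble livers. The groups did not overlap. The mean log2 ratio was higher by 0.403 in the S1PR2 shRNA livers, and an exact two-sided permutation test over the 20 assignments of livers gave p = 0.1, the smallest that 3 against 3 can reach.

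**Figure D2:**
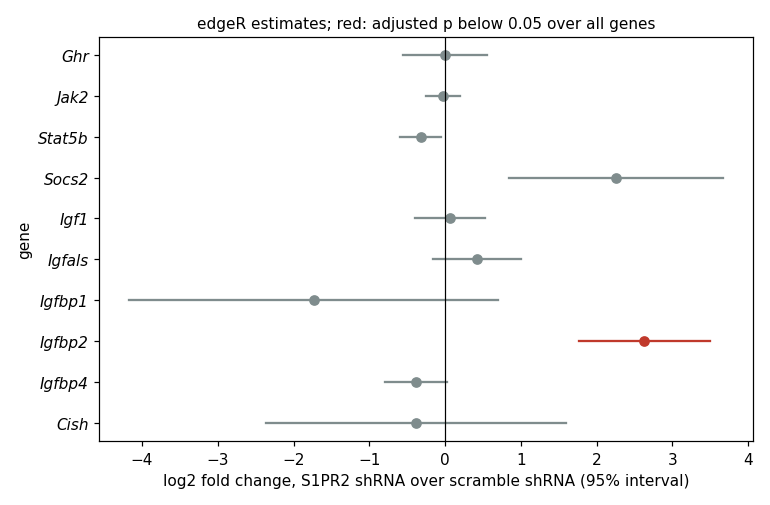
Log2 fold change of S1PR2 shRNA over scramble shRNA livers with its 95% interval, from the edgeR fit over all genes. Igfbp2, in red, passed at 2.63, and the intervals of Socs2 and Stat5b lie to either side of 0 without passing after adjustment.

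Among the binding proteins Igfbp2 rose, and Igfbp1 and Igfbp4 did not pass. Igfbp2 (16008), which binds IGF1 and IGF2 and is made by hepatocytes, had 173.5, 233 and 168.9 CPM in the S1PR2 shRNA livers, against 17, 30.9 and 45 CPM in the scramble livers. The lowest S1PR2 shRNA liver was well above the highest scramble liver. The mean was 191.8 ± 35.8 CPM in the S1PR2 shRNA and 31 ± 14 CPM in the scramble livers (SD, n = 3 each), a 6.19-fold rise (log2 fold change 2.63, SE 0.36, edgeR's adjusted p = 0.0123). By log2 fold change it ranked at place 14 among the 369 genes that rose. Without S1PR2 shRNA liver 2 the log2 fold change was 2.47 and the call was lost (edgeR's adjusted p = 0.0519); it was kept in the other 17 settings, that of the full set included.

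Igfbp1 (16006), the acutely regulated binding protein, had 51.5, 37.1 and 19.3 CPM in the S1PR2 shRNA livers, against 275.6, 24.9 and 58.8 CPM in the scramble livers. Scramble liver 1 stood far above all others, while scramble liver 2 was below 2 of the 3 S1PR2 shRNA livers. The log2 fold change of -1.73 (SE 0.97) did not pass (edgeR's adjusted p = 0.348), and without scramble liver 1 it was -0.22 (edgeR's adjusted p = 0.883). Igfbp4 (16010), an abundant inhibitor of IGF action, had 802.2, 1078.1 and 905.4 CPM in the S1PR2 shRNA livers and 1369.2, 1175.3 and 1076.2 CPM in the scramble livers. S1PR2 shRNA liver 2 and scramble liver 3 overlapped, and the log2 fold change of -0.38 (SE 0.18, edgeR's adjusted p = 0.237) did not pass.

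Per transcript length, Igfbp4 was the most abundant of the 10 genes in both groups, at 468.2 ± 37.7 FPKM in the S1PR2 shRNA and 552.5 ± 76 FPKM in the scramble livers (SD, n = 3 each). Igfbp2 stood second in the S1PR2 shRNA livers at 150.7 ± 21.2 FPKM, where its range overlapped that of Igf1 (127.3 ± 21.6 FPKM), whose range overlapped that of Ghr (93.7 ± 18.8 FPKM). In the scramble livers Igf1 stood second at 115.1 ± 11.1 FPKM, followed by Ghr at 86.4 ± 12.6 FPKM with no overlap between them, then by Igfbp1 at 76.1 ± 87.2 FPKM and Igfbp2 at 22 ± 9.96 FPKM, each overlapping its neighbour. Igfbp1 came after Ghr in the S1PR2 shRNA livers at 25.4 ± 13.1 FPKM. Igfals ranked at place 6 in both groups, at 24.7 ± 5.99 FPKM in the S1PR2 shRNA and 16.8 ± 2.82 FPKM in the scramble livers, and its range overlapped that of the gene above it in each. Stat5b, Cish, Jak2 and Socs2 had means below 10 FPKM in both groups, with Jak2 last in the S1PR2 shRNA livers and Socs2 last in the scramble livers.

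Igfbp2 took a larger part of the IGF binding protein transcripts in every S1PR2 shRNA liver. Summed over Igfbp1 to Igfbp7, the level was 745.5, 782.7 and 669.4 FPKM in the S1PR2 shRNA livers and 874.6, 633.5 and 645.9 FPKM in the scramble livers, with overlapping groups. Igfbp2 made up 20.1, 22 and 19.4% of this sum in the S1PR2 shRNA livers, against 1.41, 3.37 and 4.99% in the scramble livers. The mean difference was 17.2 percentage points (exact two-sided permutation p = 0.1, the smallest possible). Igfbp4 made up 64 ± 3.74% in the S1PR2 shRNA and 77.4 ± 4.76% in the scramble livers (SD, n = 3 each). Igfbp1 made up 5.25, 3.08 and 1.95% in the S1PR2 shRNA livers, against 20.1, 2.39 and 5.74% in the scramble livers, a mean difference of -5.99 points (exact permutation p = 0.4). Without scramble liver 1 it was -0.64 points. The sum per Igf1 transcript was 5.89 ± 1.27 in the S1PR2 shRNA and 6.36 ± 1.88 in the scramble livers (SD, n = 3 each), and its log2 difference of -0.0929 had an exact permutation p of 0.7.

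**Figure D3:**
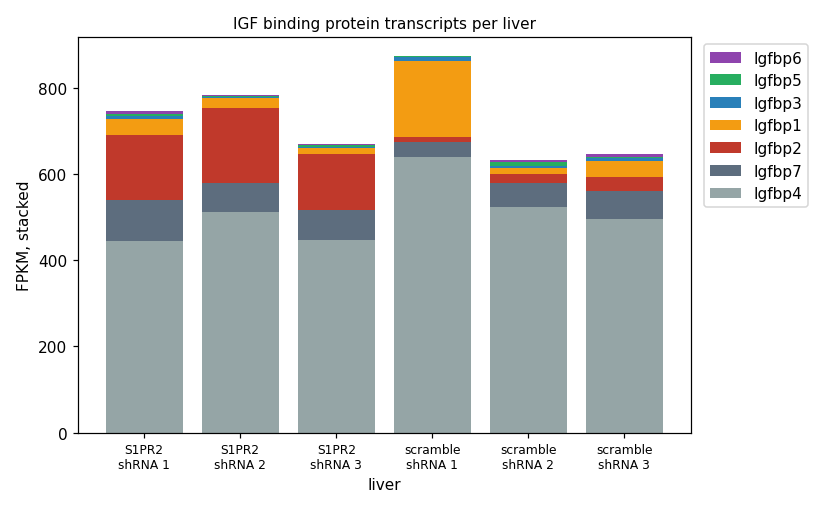
FPKM of the 7 IGF binding protein genes stacked for each liver, S1PR2 shRNA livers first. Igfbp4 is the largest block in all 6 livers, the red Igfbp2 block is thick in each S1PR2 shRNA liver (129.9 to 172.2 FPKM, against 12.4 to 32.3 FPKM in scramble livers), and Igfbp1 reaches 176 FPKM in scramble liver 1 and at most 39.2 FPKM in the others.

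The members differed widely in how steady they were within a group. The within-group SD was above the median of all genes tested (0.2 log2 units) in 7 of the 10. Igfbp1 (1.34 log2 units), Cish (1.14) and Socs2 (0.86) lay above 99.3, 98.7 and 96.8% of genes tested. Cish, Igf1 and Igfals had their lowest value in liver 1 and their highest in liver 2 in both groups. Ghr too was lowest in liver 1 of each group, but highest in S1PR2 shRNA liver 3 and scramble liver 2. The labels do not state that the livers of the groups are paired by number, so a shared order is read within each group only. Hsd3b5, a steroid dehydrogenase gene known to be induced by male growth hormone pulses, ordered the livers the same way, with 171.8, 326.4 and 242 CPM in the S1PR2 shRNA livers, against 0.184, 140.2 and 38.4 CPM in the scramble livers; it did not pass (log2 fold change 2.05, SE 1.49, edgeR's adjusted p = 0.471) and had fractional counts in 5 libraries. Other pulse-induced genes did not all share this order. Susd4 was lowest in liver 3 of both groups, with 20, 26.2 and 16.4 CPM in the S1PR2 shRNA and 7.05, 8.4 and 5.45 CPM in the scramble livers. Cyp2d9 kept the order in the S1PR2 shRNA livers (1240.2, 1547 and 1464.5 CPM) but was lowest in scramble liver 3 (2134.4, 2578.8 and 1957.2 CPM). Socs2 did not follow this order either: it was highest in liver 1 of the S1PR2 shRNA group and in liver 3 of the scramble group.

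Igfbp1 ordered the scramble livers otherwise. Pck1, the gluconeogenic enzyme gene that also responds to glucocorticoids and insulin, had 459.7, 488.7 and 255.8 CPM in the S1PR2 shRNA livers, against 2233.1, 274.5 and 679.7 CPM in the scramble livers. Like Igfbp1 it was highest in scramble liver 1, then in scramble liver 3, and lowest among the S1PR2 shRNA livers in liver 3. Pck1 did not pass (log2 fold change -1.4, edgeR's adjusted p = 0.338) and had fractional counts in 6 libraries. Fkbp5, a glucocorticoid receptor target, was also highest in scramble liver 1, with 101.9, 138.8 and 40.6 CPM in the S1PR2 shRNA livers, against 711.5, 245.8 and 353.3 CPM in the scramble livers (log2 fold change -2.22, edgeR's adjusted p = 0.08). G6pc, from the same list of insulin, FOXO and FGF21 genes as Pck1, had another order. It was lowest in liver 1 of both groups, with 275.8, 324.1 and 334.1 CPM in the S1PR2 shRNA and 757.3, 1343.5 and 860.6 CPM in the scramble livers. Of 12 glucocorticoid reporter genes tested, 1 fell and 0 rose, against 4.64% and 3.02% of all genes tested. The log2 fold change was negative in 11 of them. An unadjusted p below 0.05 was found in 5, against 24.5% of all genes tested, and DESeq2 called 4. The faller was Dusp1, a phosphatase gene, at -2.01 (edgeR's adjusted p = 0.0118; called in 16 of 18 settings), and the median of the list was -1.19.

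**Figure D4:**
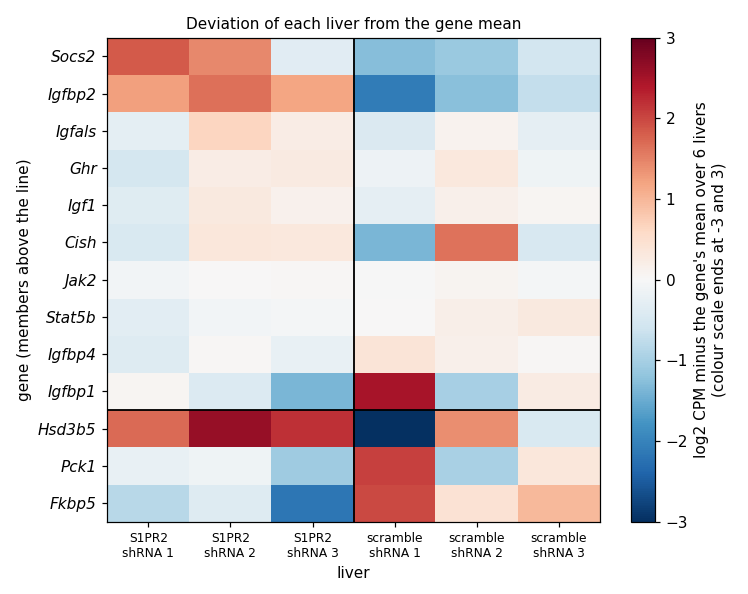
Log2 CPM of each gene minus its mean over the 6 livers, red for above and blue for below, with the 10 members above the horizontal line and Hsd3b5, Pck1 and Fkbp5 below it. Igfbp2 is red in the S1PR2 shRNA livers on the left and blue in the scramble livers on the right, Socs2 is pale blue in S1PR2 shRNA liver 3, Cish is marked by scramble liver 2 and Igfbp1 by scramble liver 1, as is Pck1.

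Few of the other genes of the pathway were called by edgeR. Of 23 further genes of receptor signalling and its brakes, 1 rose and 1 fell, against 3.02% and 4.64% of all genes tested. An unadjusted p below 0.05 was found in 9 of the 23, against 24.5% of all genes tested, and DESeq2 called 3 and limma-voom 2. Ptpn1, the phosphatase PTP1B that removes phosphate from JAK2 and the insulin receptor, had 15, 12.7 and 12.8 CPM in the S1PR2 shRNA livers, against 21.8, 20.9 and 22.1 CPM in the scramble livers (log2 fold change -0.67, SE 0.11, edgeR's adjusted p = 0.0123). Ptprf, the receptor phosphatase LAR, rose to 146.5 ± 7.42 CPM in the S1PR2 shRNA livers, against 99.1 ± 10.2 CPM in the scramble livers (SD, n = 3 each), by 0.56 on the log2 scale (edgeR's adjusted p = 0.029). Over the 18 settings, Ptpn1 was called in 14 and Ptprf in 13. In 13 of these 23 genes the groups did not overlap, against 31.9% of all genes tested.

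Of 12 receptors and adaptors for IGF1 and insulin, 0 passed in edgeR or limma-voom and DESeq2 called 2. In edgeR 3.02% of all genes tested rose and 4.64% fell. An unadjusted p below 0.05 was found in 3 of the 12, near the 24.5% of all genes tested. The 3 with the smallest p were Insr, the insulin receptor, at -0.46 (edgeR's adjusted p = 0.0759, fractional counts in 6 libraries), the docking protein gene Irs1 at 0.75 (0.12) and the adaptor gene Grb14 at 0.26 (0.18), the values being log2 fold changes and edgeR adjusted p. Of 10 other binding protein and IGF protease genes, 0 passed in edgeR, DESeq2 or limma-voom and 0 had an unadjusted p below 0.05. In CPM, Igfbp7, made mostly outside hepatocytes, had 90.1, 76.6 and 75.1 in the S1PR2 shRNA livers, against 40.3, 66.8 and 74.7 in the scramble livers (edgeR's adjusted p = 0.304, fractional counts in 6 libraries). Igfbp5 stood at -0.96 (edgeR's adjusted p = 0.33) and Igfbp3 at -0.68 (0.355) in log2 fold change.

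Among transcription factors tied to growth hormone action in liver, Onecut2 and Foxa1 rose. Onecut2, a homeobox factor gene of the HNF6 family, rose to 76.8 ± 0.919 CPM in the S1PR2 shRNA livers, against 45.8 ± 5.74 CPM in the scramble livers (SD, n = 3 each), by 0.75 on the log2 scale (edgeR's adjusted p = 0.0109). Foxa1, a forkhead factor gene, rose by 0.7 on the log2 scale (edgeR's adjusted p = 0.045). Over the 18 settings Onecut2 was called in 17 and Foxa1 in 12. Of 7 growth hormone pulse-induced genes 1 rose and 0 fell, against 3.02% and 4.64% of all genes tested. The riser was Susd4, at 1.58 (edgeR's adjusted p = 0.00884), while Cyp2d9 at -0.65 did not pass (0.068, fractional counts in 6 libraries). Of 14 insulin, FOXO and FGF21 genes 3 fell and 0 rose, against 4.64% and 3.02% of all genes tested, with a median of -0.43. The 3 were G6pc, which releases glucose, at -1.66 (edgeR's adjusted p = 0.00887), Foxo4 at -0.57 (0.0433) and Klb, the FGF21 co-receptor, at -0.4 (0.0452). Susd4 and G6pc were called in all 18 settings, Foxo4 in 9 and Klb in 6, so the calls of Foxo4 and Klb depend on the setting.

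Of the markers of other cells, the endothelial sum did not overlap between groups, while the cholangiocyte, Kupffer and stellate sums did. Endothelial markers (8 of 8 tested) summed to 220.7 to 242.5 CPM in the S1PR2 shRNA and 184.3 to 197.4 CPM in the scramble livers, with 3 called higher (Tie1, Kdr and Cdh5, in 14, 13 and 12 of 18 settings). Cholangiocyte markers (7 listed, 6 tested) summed to 67.7 to 128.8 CPM in the S1PR2 shRNA and 43.4 to 72.4 CPM in the scramble livers. Kupffer cell markers (8 of 8 tested, 0 called in edgeR, 1 at an unadjusted p below 0.05, 1 by DESeq2) summed to 145.5 to 281.8 CPM in the S1PR2 shRNA and 104.5 to 181.9 CPM in the scramble livers, and stellate markers (9 of 9 tested, 0 called in edgeR, 1 unadjusted, 1 by DESeq2) to 459.5 to 548.5 CPM in the S1PR2 shRNA and 289.7 to 502 CPM in the scramble livers. No marker of these lists was at 0 in any liver. Among the S1PR2 shRNA livers, Igfbp2 and the endothelial sum were highest in liver 2, then in liver 1, and the cholangiocyte, Kupffer and stellate sums were highest in liver 1. Among the scramble livers the likeness was a different one. There Igfbp2 and the cholangiocyte, Kupffer and stellate sums were lowest in liver 1 and highest in liver 3, and the endothelial sum was highest in liver 2. Periportal markers summed to 4018.4 to 6471 CPM in the S1PR2 shRNA and 5865.7 to 8462.3 CPM in the scramble livers. Cdh1 was called higher, but 6 of the 8 tested had a negative log2 fold change, with a median of -0.31. Pericentral markers summed to 6750.6 to 11318.1 CPM in the S1PR2 shRNA and 6899.5 to 8442 CPM in the scramble livers. Cyp1a2 and Lgr5 were called higher, and 4 of the 8 tested had a negative log2 fold change. Over all genes tested, 3.02% rose. The part of these shifts in the Igfbp2 and Socs2 values was not tested.

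The profile of Igfbp2 over the 6 livers was most like those of Rnf186, Hsd17b6, Syne4, Cdh1 and Apol9b among 9173 genes with at least 5 CPM in the higher group. The measure was the root mean square difference of log2 CPM after centring each gene on its mean, and it was 0.339, 0.392, 0.398, 0.425 and 0.436 log2 units in that order. Rnf186, a ubiquitin ligase gene, had 6.07, 6.43 and 8.02 CPM in the S1PR2 shRNA livers, against 0.796, 1.06 and 1.21 CPM in the scramble livers. Cdh1, the E-cadherin gene, had 60.7, 50.3 and 23.7 CPM in the S1PR2 shRNA livers, against 4.78, 7.84 and 8.41 CPM in the scramble livers. Hsd17b6 and Apol9b had fractional counts in 6 libraries. The likeness includes the difference between the groups and is a description with no test. Cdh1 is also 1 of the periportal markers above.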

How the data were processed

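Total RNA from 6 livers was sequenced on a DNB platform. The submitters' processing notes name the mm9 build and the tools RSEM 1.2.12, HISAT2, Bowtie2 and DESeq2. The sources used here do not give read filters, tool order or strand handling. Each deposited table holds 1 line per gene with an expected count, not scaled to depth, and FPKM, which the authors scaled to transcript length and mapped fragments. Unlisted genes were set to 0 counts. Expected counts were rounded, filtered with filterByExpr (minimum count 10), normalised by TMM and compared with the edgeR 4.0.16 quasi-likelihood F test (robust, two-sided, group only; R 4.3.3); SE and 95% intervals belong to that fit. Adjusted p-values are Benjamini-Hochberg over 12230 genes, with a threshold of 0.05. Totals were 16558775 to 17410160 counts per library.

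The members, gene lists, tests and alternatives were chosen with earlier results of these data known, so no pattern here is independent support. All members are named; of each other list, called genes and otherwise the 3 with the smallest p, and a few more as marker or context genes. Some called list genes are not reported here. Hsd3b5, Pck1 and Fkbp5 were set beside members after their values were seen. Alternatives were DESeq2 size factors, upper-quartile factors, other filters, DESeq2 1.42.0, limma-voom (limma 3.58.1), the replicate number used as a blocking factor, no robust option, limma on log2(FPKM + 0.1) or log2(FPKM + 1), and each liver left out. Promoter sequences are RefSeq, GRCm38.p6; gene overlaps are from GENCODE M21, on GRCm38.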

Additional observations from a re-analysis of the deposited data

How the results depend on the processing

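Ghr, Jak2, Stat5b, Igf1, Igfals, Igfbp1, Igfbp4 and Cish were not called under any alternative run. Igfbp2 lost its call under 1 alternative, without S1PR2 shRNA liver 2, and Socs2 gained one under 3 alternatives. The log2 fold change of Igfbp2 ran from 2.34 to 3. The signs of Ghr, Jak2, Igf1 and Cish varied between settings. Members that rose numbered 2 with DESeq2 and without the robust option, and 0 to 2 with single livers left out. Of the other genes named as called, Susd4, G6pc, Rnf186 and Apol9b were called in all 18 settings and Foxo4 and Klb in 9 and 6. Cdh1 was called in 13, Lgr5 in 11, Cyp1a2 in 16 and Syne4 in 15. Over all genes 616 rose with DESeq2; 608 rose and 265 fell on log2(FPKM + 0.1), 568 and 251 on log2(FPKM + 1), and 188 fell on the latter without a filter; the cause was not tested. The median of all genes was 0.157 and 0.102 on the filtered FPKM scales, against 0.012. Leaving out a liver gave 78 to 266 rises and 153 to 377 falls, fewest without S1PR2 shRNA liver 2. The Igfbp2 share differed by 12.8 percentage points in CPM and 19.4 without Igfbp7 in the pool; its leave-one-out range was 16.3 to 18.1. The labels do not state that the replicate number pairs the livers. Deviations of same-numbered livers correlated at -0.062, 0.222 and -0.116, and 2 of 6 libraries correlated best with their own number. So few livers cannot decide whether the numbers pair them. With the replicate block 342 genes rose and 466 fell, and S1pr2 did not pass (adjusted p = 0.0684, edgeR). No member's call changed, while Klb, Dusp1, Cdh1 and Lgr5 did not pass with the block. Irs1 (log2 fold change 0.779, edgeR's adjusted p = 0.027) and Igfbp3 (-0.723, 0.0342) passed only with it among the edgeR fits of all 6 livers. With 3 livers a group, intervals are wide for Igfbp1, Cish and Socs2: the Socs2 interval runs from 0.84 to 3.67.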
